A study of Homo sapiens with 12 samples.

Results

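The inflammasome genes described here are 10 genes taken by symbol from the deposited expression table, namely the sensors NLRP1, NLRP3, NLRC4 and AIM2, the adaptor PYCARD (the protein ASC), the caspases CASP1 and CASP4, the cytokine substrates IL1B and IL18, and the pore-forming substrate GSDMD. All 10 were present among the 26210 gene symbols of the table. RNA sequencing of total RNA depleted of ribosomal RNA was carried out on 12 libraries, 2 for each of 6 conditions. The conditions were the untreated Hodgkin lymphoma lines L428, L1236 and KM-H2 (classical Hodgkin lymphoma, cHL), the untreated non-Hodgkin lines Namalwa (Burkitt's lymphoma) and Reh (labelled a Pro-B lymphoblastic leukaemia line), and Reh treated with the phorbol ester PMA at 2 ng/ml. PMA activates protein kinase C, and the length of the treatment for these libraries is not given in the sources used here. The cHL lines were grown in IMDM and the other lines in RPMI, so medium and disease cannot be told apart. Each disease is represented by few established lines, and the labels do not say whether both libraries of a condition came from separate cultures, so that p-values measure only the spread between these libraries.

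Inflammasomes are cytosolic platforms on which a sensor protein that has met a danger signal recruits an inflammatory caspase, usually through the adaptor ASC. The active caspase cleaves the precursors of interleukin-1β and interleukin-18 and frees the pore-forming part of gasdermin D, and the ensuing lytic death is called pyroptosis. Most of the sensors and IL1B are best known from monocytes, macrophages and other myeloid cells, whereas the sensor NLRP1 is also found in lymphocytes. RNA levels say nothing of whether the proteins were assembled or active.

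Levels are FPKM, read fragments scaled to transcript length and to library size, as the authors deposited them, and the 2 values given for a condition are its libraries 0 and 1, named after the suffixes of the table. The labelled cell types were checked first. The 8 Hodgkin/Reed-Sternberg markers (TNFRSF8, CCL17 and others) summed to between 394 and 1876.5 FPKM in the cHL lines and to between 21.0 and 31.7 FPKM in the controls. Not every marker followed the sum. CCL22 was listed at 0 in KM-H2 and was at 0.638 and 0.0541 FPKM in L428, against 0.334 and 0.253 FPKM in Namalwa. CSF1R was at 0.463 and 0.246 FPKM in L1236, against 0.285 and 0.202 FPKM in Reh. It was highest in PMA-treated Reh, at 11.8 and 11.2 FPKM. The early PMA response gene EGR1 was at 0.138 and 0.0349 FPKM in Reh and at 62.1 and 76.2 FPKM after PMA. Some libraries stood apart. Ribosomal protein genes made up 6.08% of the summed FPKM in L428 library 1 against 23.5% in library 0, 10.3% against 18.7% in L1236, and 7.06% and 6.42% in PMA-treated Reh against 17.4% and 16.7% in untreated Reh. Housekeeping genes could also be at 0, for example EDF1 at 0.360 and 0 FPKM in L1236 with 146 FPKM or more in every other library, so a gene without signal is described below only as listed at 0.

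Differences were tested with limma on log2(FPKM + 1) over the 14679 genes with at least 1 FPKM in at least 2 libraries. A gene was called where its Benjamini-Hochberg adjusted p was under 0.05 and its log2 difference was at least 1 in size. Of the 10 genes, 8 passed this filter. NLRC4 and IL18 did not, NLRP3 passed only through KM-H2, and IL1B passed only through Reh with and without PMA. A gene let in by the group where it is high had to differ, so the tests of NLRP3 and IL1B below are those of a fit without this filter, over the 21217 genes with any value above 0, unless said otherwise, and they are read as descriptions.

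**Figure D1:**
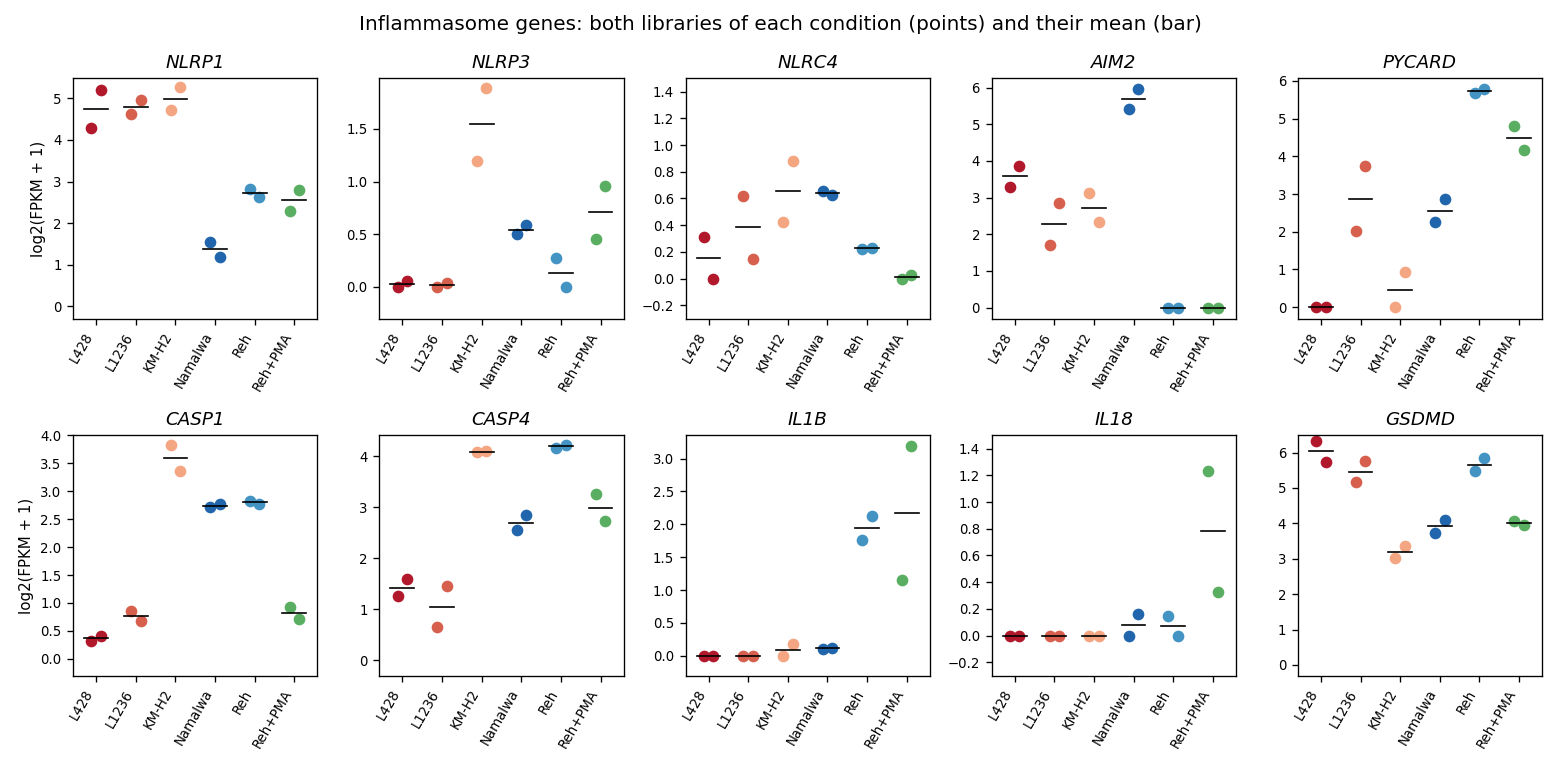
Expression of the 10 genes in all 12 libraries; the y axis is log2(FPKM + 1), each point is a library, bars are means of 2 libraries, and the axes differ between panels. NLRP1 is high in all 6 cHL libraries, AIM2 is listed at 0 in Reh with and without PMA, PYCARD is listed at 0 in L428, and IL1B exceeds 1 FPKM only in Reh with and without PMA.

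The sensor NLRP1 was the member that set the cHL lines apart from the controls. NLRP1 detects microbial proteases and other stresses and carries its own caspase recruitment domain. It lies at chr17:5402735-5522744 on the minus strand (GRCh37, GENCODE v44lift37). NLRP1 was at 18.4 and 35.6 FPKM in L428, 23.6 and 30.2 FPKM in L1236, and 25.2 and 37.8 FPKM in KM-H2. It was at 6.01 and 5.17 FPKM in Reh, 1.92 and 1.26 FPKM in Namalwa, and 3.89 and 5.94 FPKM in PMA-treated Reh. All 6 cHL libraries thus lay above all 4 control libraries, with the lowest cHL library 3.06-fold above the highest control library. In bulk RNA, fewer expressing cells and less RNA per cell cannot be told apart. Such a gap upwards was found for 9.50% of all tested genes, and a gap downwards for 8.06%. The 3 cHL lines overlapped each other, Reh overlapped PMA-treated Reh, and Namalwa was lowest and apart from the rest.

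Against the mean of Reh and Namalwa, NLRP1 was higher by 2.80 ± 0.22 on the log2 scale over the 3 cHL lines (SE; adjusted p = 6.94e-06), and by 2.69, 2.75 and 2.95 in L428, L1236 and KM-H2. This call held under every alternative that was run. The spread behind that p is that between libraries of a line. With the line as the unit, 3 against 2, an exact permutation test gave p = 0.2, the smallest 2-sided value that this design allows. Namalwa was lower than Reh by 1.35 ± 0.34 (adjusted p = 0.018), a call that was lost when Namalwa library 1 (adjusted p = 0.109), Reh library 0 (0.110) or Reh library 1 (0.0668) was left out. The interval of the difference after PMA ran from -0.95 to 0.60.

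AIM2, which binds double-stranded DNA in the cytosol, had another order. It was at 41.6 and 60.8 FPKM in Namalwa, 8.77 and 13.6 FPKM in L428, 7.66 and 4.05 FPKM in KM-H2, and 2.27 and 6.27 FPKM in L1236. AIM2 was listed at 0 in both libraries of Reh and in both of PMA-treated Reh. Namalwa was above every other condition, L428 came next without overlap, and KM-H2 and L1236 overlapped. The fitted difference of Namalwa from Reh was 5.68 ± 0.41 (adjusted p = 9.65e-06), whose size depends on the pseudocount because Reh was at 0. The controls therefore held both the highest and the lowest values, and the mean difference of the cHL lines from them was 0.02 ± 0.27 (adjusted p = 0.949). With a pseudocount of 0.1 FPKM it became 1.48 (adjusted p = 0.00462), so no direction is given for AIM2 between cHL lines and controls.

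AIM2 lies at chr1:159031389-159157633 on the minus strand (GRCh37), and in that annotation CADM3 overlaps it on the opposite strand, so shared reads are possible. CADM3 was at 0.0300 and 0 FPKM in Namalwa and at 0.390 and 0.642 FPKM in KM-H2, and was listed at 0 in the other libraries. The sharing of reads was not tested. In RefSeq, AIM2 lies 24483 bases from CADM3 and 0 bases from IFI16. Its neighbour IFI16, another DNA sensor of the same family, was not at 0 in Reh: it was at 12.02 and 9.78 FPKM there, at 28.4 and 31.2 FPKM after PMA, and at 114 and 61.3 FPKM in Namalwa. The start region of AIM2 is shown because AIM2 stayed listed at 0 in Reh after PMA, a stimulus that acts in part through the AP-1 transcription factors. It spans 250 bases before to 50 after the RefSeq start (GRCh38.p14, chr1:159076717-159077016, minus strand, 5′ to 3′), and capitals mark the 1 match to the AP-1 motif TGANTCA, searched on both strands, which begins 155 bases before the start. Of the 35116 start regions of this length in the RefSeq table, 7.71% held a match.
AIM2: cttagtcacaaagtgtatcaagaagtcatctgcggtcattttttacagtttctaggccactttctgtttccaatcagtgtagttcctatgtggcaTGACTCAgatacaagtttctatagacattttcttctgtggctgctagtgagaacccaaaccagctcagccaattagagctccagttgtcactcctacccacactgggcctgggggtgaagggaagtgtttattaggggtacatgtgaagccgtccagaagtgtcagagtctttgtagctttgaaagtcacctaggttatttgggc

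NLRP3, the sensor of potassium efflux and membrane damage, was low in every condition. It was at 1.29 and 2.69 FPKM in KM-H2, at 0.373 and 0.942 FPKM in PMA-treated Reh, and at 0.417 and 0.498 FPKM in Namalwa. It was at 0.207 and 0 FPKM in untreated Reh, at 0 and 0.0404 FPKM in L428, and at 0 and 0.0239 FPKM in L1236. KM-H2 was the highest condition and overlapped no other. Without the filter, the log2 difference of KM-H2 from the controls was 1.20 ± 0.20 (adjusted p = 0.00216). With the filter and without KM-H2 library 1 it was 0.86, below the threshold for size. After PMA the difference was 0.57 ± 0.23 (adjusted p = 0.126), and with the filter and a pseudocount of 0.1 FPKM it was 2.00 (adjusted p = 0.0337).

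NLRC4, the sensor that works with NAIP proteins on bacterial flagellin and secretion needles, reached 1 FPKM in no library. Its highest values were 0.344 and 0.841 FPKM in KM-H2 and 0.575 and 0.544 FPKM in Namalwa, and it was at 0 and 0.0199 FPKM in PMA-treated Reh. Tested without the filter on low values, NLRC4 was called in none of the 9 comparisons made with limma. NAIP itself was at 3.03 and 1.82 FPKM in Reh and at 0.0101 and 0.0107 FPKM after PMA, a difference that was not called (-1.74 ± 0.64; adjusted p = 0.0657). NAIP also differed widely between libraries of a line, at 0.973 and 0.0130 FPKM in L428 and 4.87 and 0.178 FPKM in L1236. NLRP3 lies at chr1:247579458-247612410 (plus strand) and NLRC4 at chr2:32449522-32490801 (minus strand).

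The adaptor PYCARD links sensors with a pyrin domain such as NLRP3 and AIM2 to CASP1. Among the cHL lines, it was below both controls in L428 and KM-H2 only. PYCARD was at 49.8 and 53.7 FPKM in Reh, at 26.9 and 16.9 FPKM in PMA-treated Reh, and at 3.75 and 6.26 FPKM in Namalwa. It was at 3.03 and 12.4 FPKM in L1236, at 0 and 0.913 FPKM in KM-H2, and listed at 0 in both libraries of L428. Reh stood above all other conditions, L1236 and Namalwa overlapped, and KM-H2 and L428 overlapped at the bottom. The fitted difference from the controls was -3.02 ± 0.34 in the cHL lines (adjusted p = 7.48e-05), -4.14 ± 0.46 in L428 (adjusted p = 8.92e-05) and -3.67 ± 0.46 in KM-H2 (adjusted p = 1.80e-04), and these were called under every alternative. Their sizes depend on the pseudocount because of the values listed at 0, and with 0.1 FPKM they were -4.78, -7.32 and -5.65. In L1236 the difference of -1.26 ± 0.46 missed the threshold (adjusted p = 0.0510). Without L1236 library 1, the library with fewer ribosomal protein transcripts, it was -2.13 (adjusted p = 0.00628), and without L1236 library 0 it was -0.40 (adjusted p = 0.500). It was called with the column suffix as a term (adjusted p = 0.0369), with equal library medians (-1.39; 0.0377) and with quantile normalization (-1.43; 0.0297), so the libraries do not settle PYCARD in L1236. With the line as the unit the exact permutation test gave p = 0.4, since L1236 overlapped Namalwa.

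PYCARD lies at chr16:31212807-31214771 on the minus strand (GRCh37), and the antisense gene PYCARD-AS1 overlaps it. The library kit marked strand, but whether counting used it is not given in the sources used here, so reads of the pair may not be fully separated. PYCARD-AS1 was also highest in Reh, at 7.53 and 7.31 FPKM, and was between 0.158 and 1.14 FPKM in the other libraries. PYCARD is known for a start region rich in CG dinucleotides that can be methylated in tumours, and DNA methylation was not measured in these libraries. The region is shown for that reason, again 250 bases before to 50 after the RefSeq start (GRCh38.p14, chr16:31202711-31203010, minus strand, 5′ to 3′), with each CG in capitals. It holds 23 CG against a median of 14 in all start regions of the table, of which 64.2% hold fewer than PYCARD. AIM2 above holds 2.
PYCARD: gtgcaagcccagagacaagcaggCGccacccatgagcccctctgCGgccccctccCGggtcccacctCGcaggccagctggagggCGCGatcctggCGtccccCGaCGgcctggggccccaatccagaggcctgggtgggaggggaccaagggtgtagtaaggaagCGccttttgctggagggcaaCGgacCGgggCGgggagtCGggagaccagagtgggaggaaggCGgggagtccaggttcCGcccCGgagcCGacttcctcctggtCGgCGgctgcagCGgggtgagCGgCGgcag

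RefSeq start regions were matched for 6 of the 10 genes (NLRP3, NLRC4, AIM2, PYCARD, CASP4 and IL1B). AIM2 held the only match to the AP-1 motif among them. None held the NF-κB consensus motif GGGRNNYYCC (R is A or G, Y is C or T, N is any base), searched on both strands. Of all start regions, 11.3% held it. The absence of these letters from the window says nothing of the factors.

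The caspases split the cHL lines. CASP1, which matures both cytokines and cleaves GSDMD, was at 13.2 and 9.32 FPKM in KM-H2, 6.07 and 5.87 FPKM in Reh, and 5.54 and 5.83 FPKM in Namalwa. It was at 0.818 and 0.607 FPKM in L1236, 0.254 and 0.326 FPKM in L428, and 0.912 and 0.643 FPKM in PMA-treated Reh. KM-H2 was above all, the untreated controls came next, and the other conditions were below 1 FPKM. CASP1 was lower than in the controls by 2.40 ± 0.18 in L428 (adjusted p = 5.74e-06) and by 2.00 ± 0.18 in L1236 (adjusted p = 1.75e-05), calls that held under every alternative. In KM-H2 the difference was 0.83 ± 0.18 in the opposite direction (adjusted p = 0.00407), below the threshold for size, and 1.06 without KM-H2 library 1. With the line as the unit the exact permutation test of the cHL lines against the controls gave p = 0.6 for CASP1 and p = 0.4 for CASP4, described next.

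Some markers of other cell types were found in KM-H2. The 8 T and NK markers summed to 17.9 and 27.0 FPKM in KM-H2 and to less than 1 FPKM in L428 and L1236. Most of that sum was CD3D, at 13.5 and 22.5 FPKM in KM-H2 and listed at 0 in every other library, and CD3G, at 3.25 and 2.85 FPKM, while CD3E was at 0.197 and 0 FPKM, CD8A was listed at 0, and NKG7 was at 0 and 0.511 FPKM, below Reh at 2.82 and 3.10 FPKM. The 11 monocyte, macrophage and granulocyte markers summed to 17.9 and 16.3 FPKM in KM-H2 and to 24.1 and 15.8 FPKM in L428, where CD68 was at 23.9 and 9.86 FPKM against 1.26 and 5.73 FPKM in KM-H2. Of the monocyte, macrophage and granulocyte markers, CD14 was at 5.79 and 4.56 FPKM and ITGAM at 9.14 and 4.24 FPKM in KM-H2, while S100A8 and S100A9 were listed at 0 there. Their part in the CASP1, CASP4 and NLRP3 values of KM-H2 was not tested.

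CASP4, which senses bacterial lipopolysaccharide directly and also cleaves GSDMD, was also low in L428 and L1236. It was at 15.9 and 16.2 FPKM in KM-H2, 17.0 and 17.8 FPKM in Reh, and 4.89 and 6.19 FPKM in Namalwa. It was at 1.40 and 2.02 FPKM in L428, 0.577 and 1.73 FPKM in L1236, and 8.55 and 5.68 FPKM in PMA-treated Reh. L428 and L1236 overlapped at the bottom, and PMA-treated Reh overlapped Namalwa. CASP4 was lower than in the controls by 2.03 ± 0.26 in L428 (adjusted p = 1.88e-04) and by 2.40 ± 0.26 in L1236 (adjusted p = 6.28e-05), while the difference of 0.64 ± 0.26 in KM-H2 missed the threshold (adjusted p = 0.0662).

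CASP4 and CASP1 lie in the same cluster on chromosome 11, at chr11:104813593-104840093 and chr11:104896124-104905977 (GRCh37, minus strand). The cluster also holds CASP5, listed at 0 outside PMA-treated Reh, where it was at 0.177 and 0.0961 FPKM, and CARD16. CARD16 encodes an inhibitor made of a caspase recruitment domain nearly identical to that of CASP1, so reads of the pair may have been shared and both values are uncertain. CARD16 was at 9.28 and 7.63 FPKM in KM-H2, 6.54 and 8.24 FPKM in Reh, and 6.06 and 5.01 FPKM in Namalwa. It was at 2.33 and 2.62 FPKM in L428, 0.316 and 1.30 FPKM in L1236, and 2.34 and 0.949 FPKM after PMA.

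Of the substrates, IL1B was seen in Reh and little elsewhere. IL1B encodes the precursor of interleukin-1β, the main fever-inducing product of the inflammasome, and lies at chr2:113587328-113594393 (GRCh37, minus strand). It was at 2.39 and 3.39 FPKM in Reh and at 1.22 and 8.15 FPKM in PMA-treated Reh. It was at 0.0769 and 0.0876 FPKM in Namalwa and at 0 and 0.129 FPKM in KM-H2, and was listed at 0 in all 4 libraries of L428 and L1236. The values of untreated Reh lay between those of the PMA-treated libraries. With the filter, the log2 difference after PMA was 1.25 without PMA library 0 (adjusted p = 0.00393) and -0.79 without PMA library 1 (adjusted p = 0.0166), so these libraries give no direction. Without the filter, the difference of Namalwa from Reh was -1.83 ± 0.53 (adjusted p = 0.0482), and with the filter the call was lost without either library of Namalwa (adjusted p = 0.106 without library 0 and 0.102 without library 1) or of Reh (0.0789 and 0.141). The difference of the cHL lines from the controls was -1.001 ± 0.34 without the filter (adjusted p = 0.0459), at the threshold for size, and with the filter it was no longer called when any of several libraries was left out: the adjusted p was 0.0556 and 0.0658 without KM-H2 library 1 and 0, 0.0573 and 0.0556 without L1236 library 1 and 0, 0.0519 without L428 library 1, 0.0680 and 0.0732 without Namalwa library 0 and 1, and 0.0911 without Reh library 1.

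IL1B is a gene of myeloid cells, and the 11 monocyte, macrophage and granulocyte markers summed to 31.6 and 37.3 FPKM in Reh, 15.5 and 11.4 FPKM in PMA-treated Reh, and 1.24 and 0.209 FPKM in Namalwa. In the cHL lines they summed to between 0.841 and 24.1 FPKM. In Reh most of this sum was MPO, at 24.8 and 32.0 FPKM, while CD14 was at 0.139 and 0 FPKM and S100A8 and S100A9 were listed at 0. Their part in the IL1B values was not tested.

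IL18, the precursor of the interferon-γ-inducing cytokine interleukin-18 (chr11:112013976-112034819, minus strand), was the lowest of the substrates. It was listed at 0 in all 6 cHL libraries, at 0 and 0.121 FPKM in Namalwa, and at 0.106 and 0 FPKM in Reh. After PMA it was at 1.35 and 0.255 FPKM, both above the untreated libraries. Tested without the filter on low values, this difference was 0.71 ± 0.24 (adjusted p = 0.0688).

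GSDMD, whose cleaved form makes the membrane pores of pyroptosis, was found in every library and was the most abundant member in L428 and L1236. It was at 78.9 and 52.5 FPKM in L428, 34.8 and 53.1 FPKM in L1236, and 7.16 and 9.32 FPKM in KM-H2. It was at 43.4 and 56.8 FPKM in Reh, 12.3 and 16.2 FPKM in Namalwa, and 15.8 and 14.5 FPKM in PMA-treated Reh. L428, Reh and L1236 overlapped their neighbours at the top, PMA-treated Reh and Namalwa overlapped, and KM-H2 was lowest and apart. Against the controls GSDMD was higher in L428 by 1.24 ± 0.25 (adjusted p = 0.00299), lower in KM-H2 by 1.59 ± 0.25 (adjusted p = 6.77e-04), and not called in L1236 at 0.67 ± 0.25 (adjusted p = 0.0535). The L428 difference was 0.95 without L428 library 0, below the threshold for size. Over the 3 lines the opposite signs left 0.10 ± 0.18 (adjusted p = 0.653). GSDMD lies at chr8:144635377-144645232 on the plus strand.

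**Figure D2:**
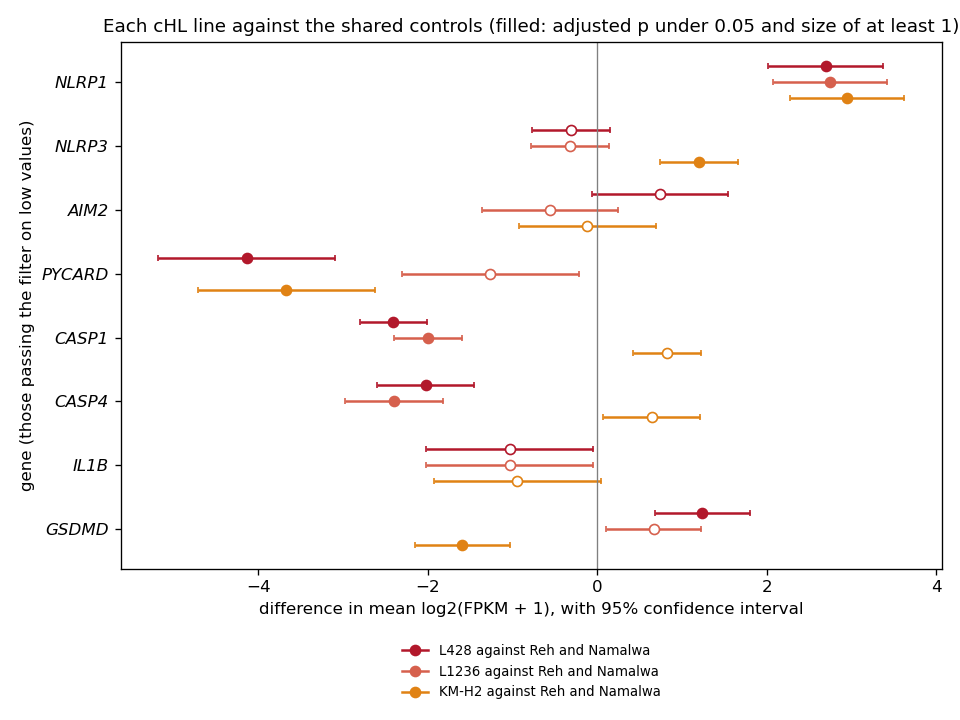
Differences of each cHL line from the mean of Reh and Namalwa in mean log2(FPKM + 1) (x axis) for the 8 genes that passed the filter (y axis), with 95% confidence intervals; filled points were called. NLRP1 is higher in all 3 lines, whereas CASP1, CASP4 and GSDMD lie on opposite sides of 0 in KM-H2 and in L428 and L1236.

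The same 10 genes can be read by comparison. NLRP3 and IL1B are listed here as descriptions, for the reason given above. Over the 3 cHL lines against Reh and Namalwa, NLRP1 was called higher (13.7% of all tested genes were), and PYCARD, CASP1, CASP4 and IL1B were called lower (10.9%), with differences of -3.02, -1.19, -1.26 and -1.001. CASP1 and CASP4 were lower in L428 and L1236 but not in KM-H2. In L428, NLRP1 and GSDMD were higher (background 16.2%) and PYCARD, CASP1 and CASP4 lower (13.8%). GSDMD in L428 overlapped Reh, at 1.31-fold on mean FPKM, and was 4.61-fold above Namalwa. In L1236, NLRP1 was higher (15.7%) and CASP1 and CASP4 were lower (13.3%). In KM-H2, NLRP1 and NLRP3 were higher (16.8%) and PYCARD and GSDMD lower (13.5%). The 3 lines were set against the same control libraries, so their results are not independent. No condition had all 10 genes at 1 FPKM or more in both libraries: KM-H2, Namalwa and Reh had 6, PMA-treated Reh 5, and L428 and L1236 4. KM-H2 had NLRP1, NLRP3, AIM2 and both caspases with little PYCARD, Reh had PYCARD and both caspases without AIM2, and L428 had AIM2 and GSDMD with neither PYCARD nor CASP1 at that level.

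The cHL lines were also compared with each other. Of the 8 tested members, AIM2 and PYCARD were called between L428 and L1236 (21.9% of all tested genes were), NLRP3, CASP1, CASP4 and GSDMD between L428 and KM-H2 (26.6%), and NLRP3, PYCARD, CASP1, CASP4 and GSDMD between L1236 and KM-H2 (26.6%). The AIM2 call was lost with a pseudocount of 0.1 FPKM (adjusted p = 0.0540), without the filter (0.0677), on only the libraries compared (0.203) and without any of 9 of the 12 libraries (0.0514 to 0.268), and the PYCARD calls were lost on only the libraries compared (0.0839 for L428 against L1236). NLRP3 passed the filter only through KM-H2. CASP1 was lower by 3.23 ± 0.20 in L428 than in KM-H2 (adjusted p = 3.74e-06) on the log2(FPKM + 1) scale. The ratio of mean FPKM, without a pseudocount, was 38.8, and with a pseudocount of 0.1 FPKM the log2 difference was -4.85. The intervals for NLRP1 ran from -0.83 to 0.72 for L428 against L1236, from -1.04 to 0.52 for L428 against KM-H2, and from -0.98 to 0.57 for L1236 against KM-H2.

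Both caspases and GSDMD were lower in Reh after PMA. CASP1 fell by 1.98 ± 0.20 (adjusted p = 1.85e-04; 7.68-fold on mean FPKM), GSDMD fell by 1.65 ± 0.29 (adjusted p = 0.00290; 3.32-fold) and CASP4 fell by 1.20 ± 0.29 (adjusted p = 0.0143; 2.45-fold). Genes called lower made up 11.8% of all tested genes and genes called higher 10.5%, and no member was called higher. The CASP1 and GSDMD calls held under every alternative. The CASP4 call was lost without Reh library 0 (adjusted p = 0.0694), Reh library 1 (0.0767) or PMA library 1 (0.0948), or with a pseudocount of 0.1 FPKM (0.0518). PYCARD differed by -1.24 ± 0.53, 2.37-fold on mean FPKM, and missed the threshold (adjusted p = 0.109), although without L1236 library 1 or 0, which are no part of the comparison but of the shared spread, its adjusted p was 0.0401 and 0.0400. Both PMA libraries also had a low share of ribosomal protein transcripts, which cannot be told apart from the treatment in this design.

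The control lines differed from each other in most members. AIM2 was higher in Namalwa than in Reh (7.50% of all tested genes were higher), and NLRP1, PYCARD, CASP4, IL1B and GSDMD were lower (11.5%). PYCARD was lower by 3.17 ± 0.53 (adjusted p = 0.00200; 10.3-fold), GSDMD by 1.74 ± 0.29 (adjusted p = 0.00173; 3.51-fold) and CASP4 3.14-fold (adjusted p = 0.00486). CASP1 did not pass the test, with an interval from -0.52 to 0.40. A mean over the controls therefore stands between unlike lines for the 6 members called here. NLRP3 was not called, although its Namalwa libraries lay above those of Reh.

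**Figure D3:**
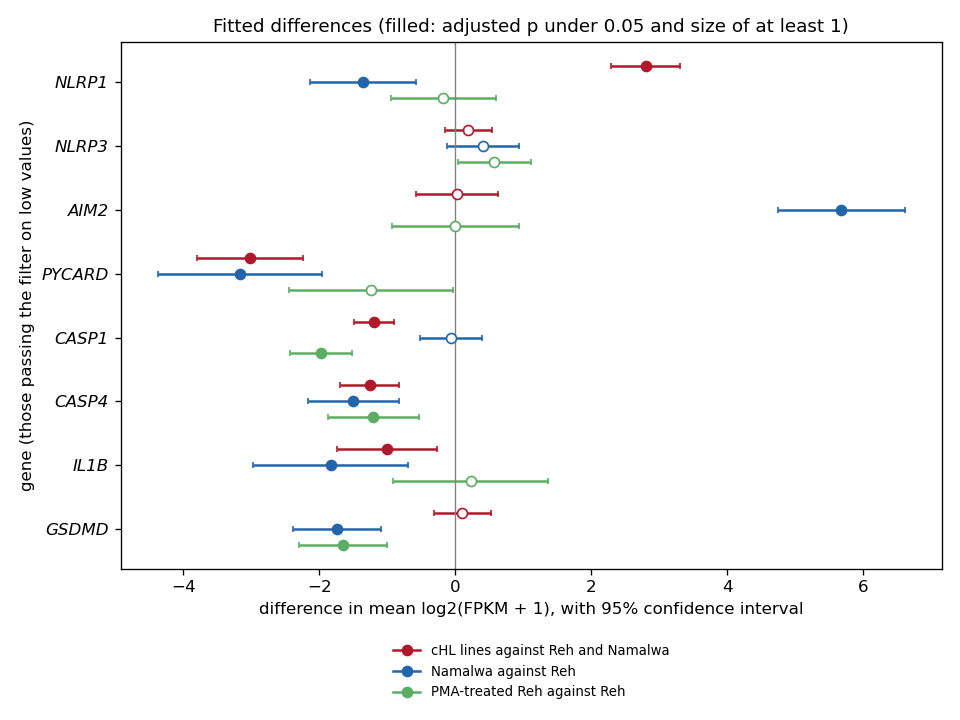
Differences in mean log2(FPKM + 1) (x axis) of the 8 tested genes (y axis) for the cHL lines against both controls, Namalwa against Reh, and Reh with against without PMA, with 95% confidence intervals; filled points were called. NLRP1 is higher in the cHL lines by 2.80, AIM2 is higher in Namalwa by 5.68, and CASP1, CASP4 and GSDMD are lower after PMA.

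Other genes of the pathway were followed from 6 lists with 89 symbols, of which 88 were in the table and 61 passed the filter. In the cHL lines 13 of the 61 were higher (13.7% of all tested genes were) and 6 lower (10.9%) than in the controls, with a median log2 difference of 0.13 against 0.02 over all tested genes. Of these, 8 of the 13 (NLRP11, NOD2, GBP2, GBP5, IL1R2, IL1RL1, IL18R1 and IRAK2) would not have passed the filter without the cHL libraries, and 1 of the 6 (TLR10) would not have passed without the controls. These 9 genes had to differ once let in, so they are described here with the fit without the filter, and the counts are read as a description only. In the interleukin-1 and interleukin-18 family, with 9 tested genes, 4 were higher and 0 lower, and 3 of the 4 were let in that way. IL1R2, a decoy receptor that binds interleukin-1 without signalling, was at 85.3 and 64.8 FPKM in L428, 135 and 166 FPKM in L1236, and 77.8 and 69.9 FPKM in KM-H2. It was at 0.401 and 0.457 FPKM in Namalwa and listed at 0 in Reh, and its difference without the filter was 6.31 ± 0.11. IL18R1, the ligand-binding chain of the interleukin-18 receptor, was at 12.5 FPKM or more in all 6 cHL libraries and at 0.0940 FPKM or less in all controls (4.46 ± 0.29 without the filter). IL18RAP, the second chain of that receptor, was at 0.292 and 0.744 FPKM in L428, 0.596 and 0.578 FPKM in L1236, and 2.12 and 1.39 FPKM in KM-H2, and its difference of 0.90 was below the threshold for size. IL1B and IL18 were at or below 0.129 FPKM in the same cHL libraries.

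The signalling receptor IL1R1 was at 41.0 and 34.1 FPKM in L1236 but at 0.122 and 0.380 FPKM in L428 and 2.60 and 0.491 FPKM in KM-H2. The interleukin-33 receptor IL1RL1 was at 16.9 and 27.3 FPKM in L1236 and 8.37 and 21.3 FPKM in L428, and at 0 and 0.154 FPKM in KM-H2. The mean differences over the 3 lines were 2.00 and, for IL1RL1 without the filter, 2.82, and neither gene was high in each line.

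Among the 15 tested adaptors, regulators and inhibitors, 3 were higher and 0 lower in the cHL lines, beside 13.7% and 10.9% of all tested genes, and 2 of the 3 (GBP2 and GBP5) were let in by the cHL libraries. GBP5 and GBP2, interferon-induced GTPases that act upstream of inflammasomes on bacteria and their products, differed by 4.004 ± 0.30 and 3.41 ± 0.26 without the filter. GBP5 was at 35.7 and 78.6 FPKM in L428, 15.0 and 26.0 FPKM in L1236, and 1.499 and 4.41 FPKM in KM-H2, and was listed at 0 in all control libraries. The third was NEK7, a kinase needed by NLRP3, higher by 1.35. TXNIP, a thioredoxin-binding protein linked to NLRP3, was at 0 and 3.75 FPKM in KM-H2, between 17.9 and 47.7 FPKM in the controls, and between 62.8 and 365 FPKM in L428 and L1236. It was lower in KM-H2 by 3.67 ± 0.82 (adjusted p = 0.00545).

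The counts of the next lists stand beside 13.7% of all tested genes called higher and 10.9% called lower in the cHL lines. Of the 4 tested gasdermins and membrane rupture genes, GSDMB was higher in the cHL lines by 2.64 and NINJ1, which breaks the plasma membrane late in lytic death, by 2.12. NINJ1 was at 56.1 and 52.6 FPKM in KM-H2, the line with the least GSDMD, and between 3.88 and 6.24 FPKM in the controls. Of the 13 other sensors tested, 2 were higher (NLRP11 and NOD2, both let in by the cHL libraries, with differences of 1.22 and 1.08) and 3 lower (NLRC3, NLRP2 and IFI16, with differences of -3.28, -2.70 and -1.14). NLRP2 was at 0.0496 and 0 FPKM in L1236, lower by 4.45 ± 0.22 (adjusted p = 4.29e-07). NLRP7 was at 7.08 and 5.33 FPKM in KM-H2 and listed at 0 in 9 of the other 10 libraries. Of the 7 other caspases, CASP6 was higher by 1.07. Of the 13 priming receptors and signalling genes, TLR1 and TLR6 were lower, with differences of -1.25 and -1.07. IRAK2, between 1.68 and 3.54 FPKM in the cHL libraries and at most 0.278 FPKM in the controls, and TLR10 differed by 1.42 and -3.34 without the filter. TLR10 was at 0.160 FPKM or less in every cHL library.

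After PMA 10 of the 61 genes were higher (10.5% of all tested genes were) and 10 lower (11.8%), with a median of 0. Of the 10 lower, 1 passed the filter only through untreated Reh, and 2 of all these calls were lost without the filter. The counts are read as a description only. CARD8, which like NLRP1 binds CASP1 through its own recruitment domain, was at 30.2 and 25.6 FPKM in Reh and at 97.3 and 83.5 FPKM after PMA (1.66 ± 0.23; adjusted p = 8.13e-04). The inhibitor CARD16 fell by 1.71 beside CASP1, and GBP1 fell by 1.79. IL1R1 and its partner chain IL1RAP were higher by 2.53 ± 0.52 (adjusted p = 0.00658) and 1.90 ± 0.38 (adjusted p = 0.00549). IL1R1 was at 0.471 and 0.414 FPKM before and at 13.7 and 3.71 FPKM after treatment. The DNA sensor IFI16 was higher by 1.38, TLR3 fell by 1.79 and NINJ1 fell by 1.44. Of the 13 other sensors tested, 2 were higher (CARD8 and IFI16) and 3 lower, beside 10.5% and 11.8% of all tested genes. The lower ones were NOD1 (3.46 and 3.24 FPKM before, 0.598 and 0.650 FPKM after), NLRX1 (6.79 and 8.45 before, 2.92 and 3.27 after) and CIITA (21.1 and 15.4 before, 3.03 and 9.07 after). Between the controls, 7 of the 61 were higher (7.50% of all tested genes) and 14 lower (11.5%) in Namalwa than in Reh, led by GBP1 (-4.31), IFI16 (2.84), TLR10 (2.55) and TLR3 (-2.43). Of these 7 and 14, 1 each passed the filter only through the line where it was higher, and 2 calls were lost without the filter. They too are read as a description only. The counts for single lines against the controls were 15 higher and 9 lower in L428 (16.2% and 13.8% of all tested genes), 14 and 8 in L1236 (15.7% and 13.3%), and 13 and 6 in KM-H2 (16.8% and 13.5%). Of these, 1 higher and 1 lower in L428, 2 and 1 in L1236, and 3 and 1 in KM-H2 passed the filter only through their higher side. In L428, 2 calls were lost without the filter. The single-line counts are therefore read as a description only.

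**Figure D4:**
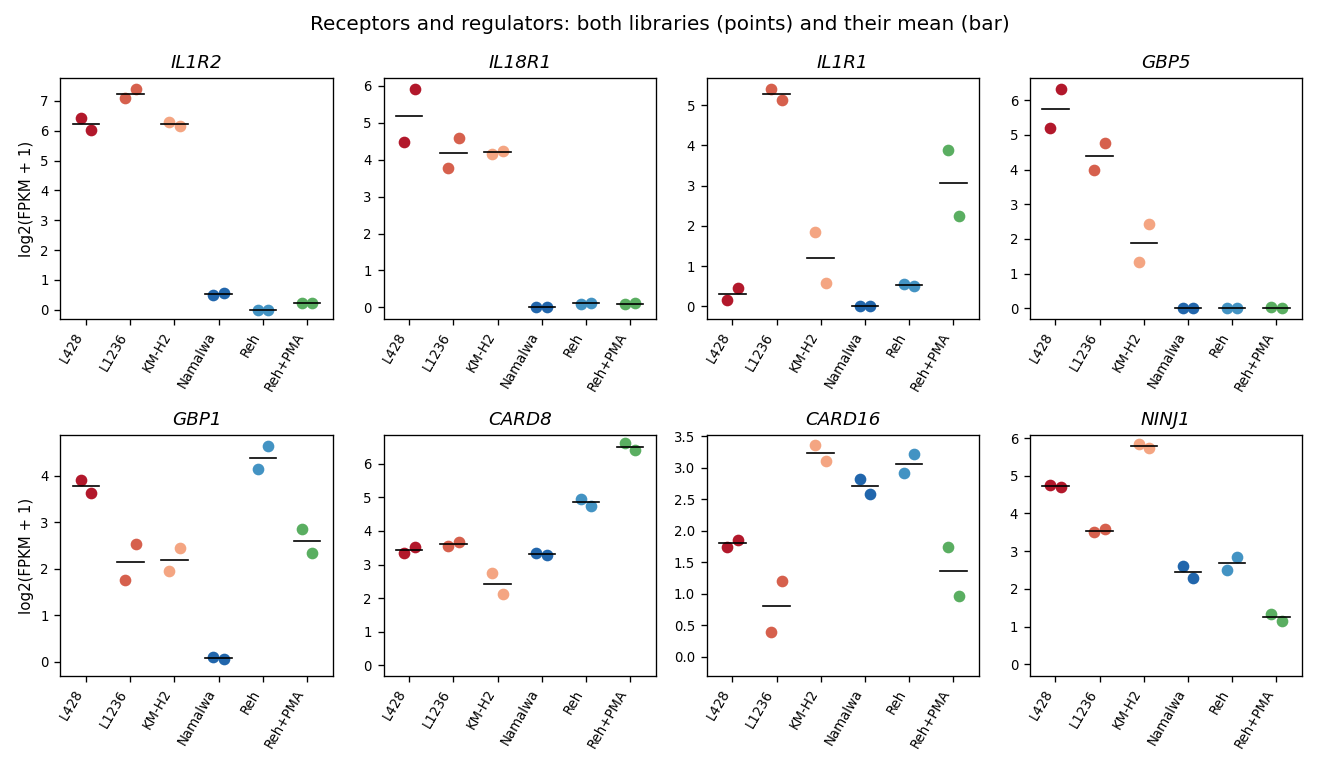
Expression of 8 genes from the wider lists in all 12 libraries; the y axis is log2(FPKM + 1), each point is a library, bars are means of 2 libraries, and the axes differ between panels. IL1R2, IL18R1 and GBP5 are above 1 FPKM in all 6 cHL libraries and below it in the others, and CARD8 is highest after PMA.

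The genes whose profile over the 12 libraries was most like that of each tested member were listed as a description. The libraries form only 6 conditions, so high values are easily reached. For NLRP1 they were LOC728392 (Pearson r = 0.987), RAB39B (0.981) and KLF11 (0.975). LOC728392 is the nearest gene of the table to NLRP1 on chromosome 17, and it was at 4.08 FPKM or more in every cHL library and at 2.01 FPKM or less in every control library. For IL1B they were NKX2-3 (0.992), MRVI1 (0.990) and PRRT4 (0.976), each highest in Reh with or without PMA. For AIM2 they were DPY19L2 (0.976), FAM167A (0.971) and LRRC16A (0.966), and for PYCARD RAVER2 (0.967), ABHD3 (0.947) and STK38 (0.947). For CASP1 they were ZNF154 (0.971), POLR2M (0.966) and TOP3B (0.965), and for CASP4 ZNF850 (0.966), SH3TC1 (0.955) and TYRO3 (0.951). For GSDMD they were ARSA (0.947), IDH2 (0.941) and ACAP1 (0.933), and for NLRP3 CFP (0.946), ZCCHC4 (0.943) and RAB17 (0.933).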

How the data were processed

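RNA-seq libraries were prepared in duplicate by the authors from 6 conditions with a stranded total RNA kit after ribosomal RNA removal. The deposited FPKM values per gene symbol are the authors' own and were used unchanged. Per the labels, the processing notes name TopHat2 2.0.11, Cuffnorm 2.2.1 and the genome build hg19, and the gene annotation and scaling are not given in the sources used here. Read depth is unknown, so no counting intervals are given. Column suffixes 0 and 1 were not tied to labelled replicate numbers, and groups were taken from the column names.

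Log2(FPKM + 1) values were fitted with limma 3.58.1 in R 4.3.3 (1 mean per condition, empirical Bayes with trend, 6 residual degrees of freedom, Benjamini-Hochberg over 14679 genes). The fit was tested on simulated data. Alternatives were a pseudocount of 0.1 FPKM, no filter, equal library medians, quantile normalization, no trend, only the libraries compared, each library left out and, chosen after seeing the data, the column suffix as a term or the cHL libraries of 1 suffix left out. Exact permutation tests over lines used scipy 1.17.1 in Python 3.11.15. Named genes were the 10 members and the 3 most correlated genes of each tested member. From the wider lists they were at most the 4 called genes with the largest difference per comparison. Called genes of lists with 5 or fewer calls were named only in part. Some further genes (CASP5, CARD16, NAIP, PYCARD-AS1, IFI16) were named beside a member after their values were seen. Members and lists were chosen with earlier results of these data known. The check against 1 marker list is not reported here.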

Additional observations from a re-analysis of the deposited data

Results flagged for a closer look

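The 3 cHL lines differed from each other in 6 members, each by a limma test of the difference between lines, which with shared controls is also the difference of their effects against Reh and Namalwa. Values are log2 differences ± SE with adjusted p. KM-H2 stood apart from both other lines in CASP1 (L428 against KM-H2 -3.23 ± 0.20, 3.74e-06; L1236 against KM-H2 -2.82 ± 0.20, 6.47e-06), CASP4 (-2.67 ± 0.29, 1.18e-04, and -3.04 ± 0.29, 4.46e-05), NLRP3 (-1.51 ± 0.24, 9.75e-04, and -1.52 ± 0.24, 8.92e-04) and GSDMD (2.83 ± 0.29, 6.74e-05, and 2.26 ± 0.29, 2.53e-04). L1236 stood apart from both other lines in PYCARD (L428 against L1236 -2.87 ± 0.53, 0.00327; L1236 against KM-H2 2.41 ± 0.53, 0.00673). AIM2 was higher in L428 than in L1236 (1.29 ± 0.41, 0.0407), a call lost when any of 9 of the 12 libraries was left out, with adjusted p from 0.0514 to 0.268 (without L1236 library 0, difference 0.72). The PYCARD difference of L1236 from KM-H2 was not called without KM-H2 library 0 (1.94, adjusted p = 0.0595). Fitted on only the libraries compared, PYCARD was not called in either pair (adjusted p = 0.0839 and 0.120), nor NLRP3 in L428 against KM-H2 (0.0508). NLRP3 passed the filter on low values only through KM-H2, so its tests here are descriptions; without the filter the adjusted p was 0.00189 and 0.00174. Groups of 2 libraries are too small for a test of single outlying libraries.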

How the results depend on the processing

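Of 1512 recalculated member differences, 1402 kept their direction and their side of the threshold, 45 lost a call, 34 gained one and 31 changed sign, the last for differences that were not called in the reported fit. NLRP1 in every comparison of cHL lines with the controls, PYCARD in L428, KM-H2 and over the cHL lines, CASP1 in L428, L1236 and after PMA, and GSDMD after PMA were called under every alternative run. No paired analysis was possible because the column suffixes 0 and 1 do not say which labelled replicate a column is, and the planned replicate block was not run. The deviations of the suffixes were correlated across genes between L428 and L1236 (r = 0.681), L1236 and KM-H2 (0.427), Namalwa and Reh (0.357), L428 and KM-H2 (0.301), KM-H2 and Namalwa (0.191) and L1236 and Namalwa (0.165), and were at -0.0088 between Reh with and without PMA (-0.0088). A fit with the suffix itself as a term, which does not stand for the labelled replicates and was chosen after seeing the data, gained PYCARD in L1236 (adjusted p = 0.0369) and changed no other member call. The cause of the other changes was not tested.

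Counts moved by over 1.5 times as follows. Genes called after PMA numbered 3265, and 2082 to 3363 with a library left out (2168 without Reh library 0 and 2082 without PMA library 0). Fits on only the libraries compared called 2052 genes (main 3216) and 0 members (main 2) for L428 against L1236, and 1972 genes (main 3904) for L428 against KM-H2; fewer residual degrees of freedom are part of that setting. For L428 against L1236, members called were 1 without the filter, 1 without the 3 cHL libraries of suffix 0, and 1 to 2 with a library left out. For L1236 against the controls, 5 members were called instead of 3 with a pseudocount of 0.1 FPKM, equal library medians, quantile normalization, or without the 3 cHL libraries of suffix 1. Equal library medians shifted all genes of that comparison by 0.13, and those of the other comparisons with controls or with Reh by 0.0965 or less in size. With a pseudocount of 0.1 FPKM, calls gained against the controls included AIM2 in L428 (2.30, adjusted p = 0.00254) and NLRP3 in L1236 (-1.49, 0.0428). IL1B was gained in L428 (-2.87, 0.00555), L1236 (-2.87, 0.00568) and KM-H2 (-2.27, 0.0170). Those of NLRP3 and IL1B are descriptions, as above.

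Signs changed for these values, none of them called in the reported fit. With a pseudocount of 0.1 FPKM: NLRP3 in the cHL lines -0.0753, AIM2 in L1236 0.79 and AIM2 in KM-H2 1.34 (adjusted p = 0.0338), which passed both thresholds under that setting. With equal library medians: AIM2 in the cHL lines -0.0737. With quantile normalization: NLRP3 and AIM2 in the cHL lines -0.0066 and -0.0151, and CASP1 in Namalwa against Reh 0.0247. Without the 3 cHL libraries of suffix 1: AIM2 in the cHL lines -0.14 and in KM-H2 0.27. Without those of suffix 0: AIM2 in L1236 0.0213, NLRP1 and GSDMD in L428 against L1236 0.23 and -0.0161, and AIM2 in L1236 against KM-H2 0.53. With a library left out, the ranges that crossed 0 were -0.43 to 0.0774 for NLRP1 and -0.79 to 1.25 for IL1B after PMA; -0.17 to 0.22 for AIM2 in the cHL lines, -1.13 to 0.0213 in L1236 and -0.50 to 0.27 in KM-H2; -0.51 to 0.40 for NLRP1, -0.017 to 0.0401 for NLRP3 and -0.0228 to 0.77 for CASP4 in L428 against L1236; -0.72 to 0.20 for NLRP1 in L428 against KM-H2; and -0.49 to 0.0811 for NLRP1 and -1.02 to 0.14 for AIM2 in L1236 against KM-H2.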
